A study of Mus musculus with 4 samples.

Results

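The cathepsins are the proteases of the lysosome, and 10 of their genes are described here: *Ctsa*, *Ctsb*, *Ctsc*, *Ctsd*, *Ctsh*, *Ctsk*, *Ctsl*, *Ctso*, *Ctss* and *Ctsz*. They were taken by gene symbol from a table of total RNA expression in mouse periosteal cells, which lists 45802 symbols. All 10 had a value in all 4 libraries, as did 14415 genes in total. Another 13 cathepsin genes were listed, of which 3 had a value in any library.

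The study asked which transcripts differ between periosteal cells with and without PDGFRα reporter activity. Male mice carried a CreER recombinase under the *Pdgfra* promoter together with the mT/mG reporter, and were 2 months old when tamoxifen was injected on 5 days at a daily 150 mg/kg. Femora and tibiae were taken 14 days after tamoxifen. The mice that yielded the cells are described as 9 to 10 weeks old. In both groups the periosteal cells were pooled from several mice, grown for 1 passage with 10 ng/mL bFGF, and sorted as negative for CD31, CD45 and Ter119. PDGFRα reporter+ cells had recombined and carried membrane GFP. PDGFRα reporter- cells still carried membrane tdTomato. Each population had 2 libraries, which the table heads with the numbers 2 and 3, whereas the sample labels count replicates 1 and 2. Libraries are therefore named by the heading number. Nothing in the labels ties a heading number to a preparation of cells, so p-values measure the spread between these libraries, which may be technical in part.

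Cathepsins are made as inactive precursors, carried to the lysosome largely through mannose 6-phosphate receptors, and activated there at acidic pH. Most are cysteine proteases of the papain family, while cathepsin D is an aspartic and cathepsin A a serine protease. In bone they are best known from osteoclasts, where cathepsin K degrades collagen, and from macrophages, where cathepsin S and others process antigens. Cathepsin K also serves as a marker of a periosteal progenitor population.

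The values are log2 expression after quantile normalization, in which each library is given the same distribution, from -10.07 to 11.73. The unit beneath the logarithm and the depth of the libraries are not given in the sources used here. The counting error of a value is therefore unknown. Apart from summed levels, shares of them and a position low on the scale, levels are not compared between genes. Between 15423 and 15605 genes had a value per library. *Pdgfra* itself lay at 7.78 and 7.62 in the reporter+ libraries and at 7.87 and 7.44 in the reporter- libraries, so its transcript did not separate populations that were sorted on a reporter. All 10 stromal markers examined had a value in all 4 libraries. Of the genes behind the sort, *Ptprc* (CD45) lay at -1.28 and -0.39 against -2.30 and -1.22, and *Pecam1* (CD31) at -4.68 and -4.79 in the reporter+ against -1.99 and -1.11 in the reporter- libraries, without overlap.

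The 2 reporter+ libraries lay above the 2 reporter- libraries for *Ctss* and *Ctsk*, and overlapped them for the other 8 members. Promoters are shown for 4 members: *Ctss* and *Ctsk*, which are neighbors on chromosome 3 and are the members without overlap, *Ctsc*, which had the widest range over the libraries, and *Ctsd*, which differed little between populations. Sequences run 5′ to 3′ on the strand of the gene and are from RefSeq, build GRCm38.p6. They cover the 250 bases before the start of the gene for *Ctsk* and *Ctsd*, and the same with 6 bases after it for *Ctss*, where a match crosses the start. For *Ctsc* they cover 189 bases, because the start site of its promoter window lies 61 bases inside the gene as annotated. Capitals mark matches to the letters GAGGAAGT or ACTTCCTC, a site for the myeloid factor PU.1 on either strand, or to CACGTG and its longer form TCACGTGA, the core of the element bound by the lysosomal regulators TFEB and TFE3.

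Ctss promoter, chr3:95526536-95526791, plus strand: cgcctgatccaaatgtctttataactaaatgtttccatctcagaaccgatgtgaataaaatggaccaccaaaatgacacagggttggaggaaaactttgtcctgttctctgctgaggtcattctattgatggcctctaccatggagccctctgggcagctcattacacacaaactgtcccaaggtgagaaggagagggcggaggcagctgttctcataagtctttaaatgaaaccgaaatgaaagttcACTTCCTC
Ctsk promoter, chr3:95498960-95499209, plus strand: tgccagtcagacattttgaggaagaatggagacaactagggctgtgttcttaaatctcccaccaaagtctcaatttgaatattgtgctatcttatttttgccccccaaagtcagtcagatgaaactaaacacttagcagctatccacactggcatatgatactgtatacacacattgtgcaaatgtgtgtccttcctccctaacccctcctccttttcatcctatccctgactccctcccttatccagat
Ctsc promoter, chr7:88277835-88278023, plus strand: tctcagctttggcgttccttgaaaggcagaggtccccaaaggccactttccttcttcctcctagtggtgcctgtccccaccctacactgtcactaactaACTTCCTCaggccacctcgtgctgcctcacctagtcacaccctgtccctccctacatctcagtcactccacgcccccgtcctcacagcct
Ctsd promoter, chr7:142387828-142388077, minus strand: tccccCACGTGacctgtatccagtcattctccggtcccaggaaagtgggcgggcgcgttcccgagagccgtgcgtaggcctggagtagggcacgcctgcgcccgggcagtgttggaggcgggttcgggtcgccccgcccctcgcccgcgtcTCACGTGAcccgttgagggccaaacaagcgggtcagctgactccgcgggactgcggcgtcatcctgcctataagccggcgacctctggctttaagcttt

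The promoter table matched 8 of the 10 members, all but *Ctsb* and *Ctsh*, with 9 promoters because *Ctsa* has 2. Windows of 300 bases, 250 before and 50 after each start site of that table, were searched for each motif on both strands. The PU.1 letters were found in *Ctss* and *Ctsc*, and in 3.2% of all 32851 promoters. The match in *Ctss* begins 2 bases and that in *Ctsc* 90 bases before the start of the gene. The palindrome CACGTG was found in *Ctsa*, *Ctsd* and *Ctsl*, and in 7.15% of all promoters. The windows that hold it in *Ctsa* and *Ctsl* have start sites 901 and 252 bases inside the gene. TCACGTGA, which contains CACGTG and was added after the data were seen, was found in *Ctsa* and *Ctsd*, and in 0.974% of all. A match describes letters and not a bound site.

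Mean values of all 10 members were higher in PDGFRα reporter+ cells, where 49.1% of all 14415 genes were. Of the 10 members, 8 were higher in the reporter+ library within both heading numbers, as were 22.1% of all genes, and *Ctsa* and *Ctsz* were higher within number 2 and lower within number 3. The median log2 difference of the members was 0.29, with 0.29 within number 2 and 0.28 within number 3, and over all genes it was -0.0035. No member passed the test. With limma and Benjamini-Hochberg adjustment over all genes, 0 of 10 members and 0% of all genes had an adjusted p under 0.05, and the adjusted p was 1 for each member. At an unadjusted p under 0.05 there were 131 genes, and the higher ones held 2 of 10 members, *Ctss* and *Ctsk*, and 0.451% of all genes. With 2 libraries against 2, an exact two-sided permutation test of a single gene cannot go below 0.333. In bulk RNA, fewer cells of a type and less RNA per cell cannot be told apart.

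**Figure D1:**
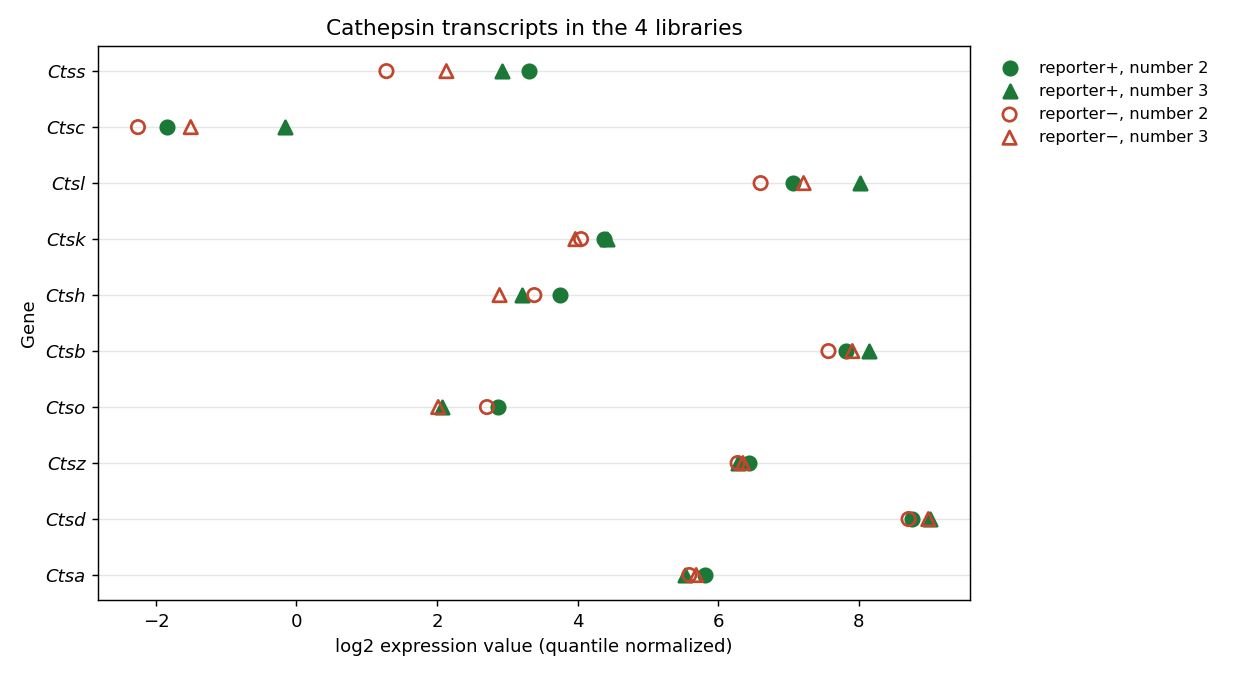
Log2 expression value (horizontal axis) of each cathepsin gene (vertical axis) in the 4 libraries, with filled symbols for PDGFRα reporter+, open symbols for PDGFRα reporter-, circles for heading number 2 and triangles for number 3. The filled symbols lie right of the open ones for *Ctss* (3.31 and 2.92 against 1.28 and 2.13) and *Ctsk* (4.38 and 4.42 against 4.05 and 3.97), and intermix for the other 8 genes.

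Among the cysteine endopeptidases, which cut within protein chains, *Ctss* differed most between populations. *Ctss* encodes cathepsin S, which trims the invariant chain of MHC class II in antigen-presenting cells and stays active at neutral pH. The gene (RefSeq gene 13040) spans chr3:95526786-95556405 on the plus strand in GRCm38.p6. *Ctss* lay at 3.31 and 2.92 in the reporter+ libraries numbered 2 and 3, and at 1.28 and 2.13 in the reporter- libraries. Both reporter+ values were above both reporter- values, and the lowest was the reporter- library numbered 2. The means were 3.12 ± 0.28 (SD, n = 2) and 1.71 ± 0.60, a log2 difference of 1.41 (SE 0.35, 95% interval 0.48 to 2.35), or 2.66-fold. In limma its unadjusted p was 0.0127 and its adjusted p was 1. The difference was 2.03 within number 2 and 0.79 within number 3, and it was 0.98 when the reporter- library numbered 2 was left out.

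*Ctsk*, for cathepsin K, the collagen-degrading protease of osteoclasts, ends 17398 bases before the start of *Ctss* and lies on the same strand (gene 13038, chr3:95499210-95509387). *Ctsk* lay at 4.38 and 4.42 in the reporter+ libraries, and at 4.05 and 3.97 in the reporter- libraries. The populations did not overlap, and number 3 minus number 2 was 0.04 in reporter+ and -0.08 in reporter- cells. The means were 4.40 ± 0.03 and 4.01 ± 0.06, a log2 difference of 0.39 (SE 0.13, 95% interval 0.04 to 0.75; 1.31-fold), with an unadjusted p of 0.0372 and an adjusted p of 1 in limma. The difference was 0.33 within number 2 and 0.45 within number 3. Without the variance trend in limma, the 95% interval of *Ctsk* was -0.12 to 0.91 and its unadjusted p was 0.0991. The unadjusted p of *Ctss* was then 0.0264. Of the 10 members, 2 were thus without overlap and higher, beside 7.59% of all genes.

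*Ctsl* encodes cathepsin L, a broadly expressed endopeptidase of lysosomal protein turnover (gene 13039, chr13:64361890-64370772, minus strand). *Ctsl* lay at 7.07 and 8.02 in the reporter+ libraries, and at 6.61 and 7.22 in the reporter- libraries. The reporter+ library numbered 3 stood highest, and the reporter- library numbered 3 was above the reporter+ library numbered 2. The log2 difference was 0.63 (SE 0.42, 95% interval -0.47 to 1.74), with 0.46 within number 2 and 0.81 within number 3.

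The exopeptidases remove residues from chain ends. *Ctsc*, for dipeptidyl peptidase 1, which activates the serine proteases of immune cell granules (gene 13032, chr7:88278024-88315861, plus strand), was the one member with a mean below 0. *Ctsc* lay at -1.84 and -0.16 in the reporter+ libraries, and at -2.26 and -1.51 in the reporter- libraries. Its range of 2.09 over the libraries was the widest of the 10, and the reporter+ library numbered 3 stood above the other 3. The log2 difference of 0.88 had a 95% interval of -1.04 to 2.80, with an SD of 1.19 between the reporter+ libraries. It was 0.42 within number 2 and 1.34 within number 3, and 0.28 over all libraries with 1 added to each linear value before taking logs.

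*Ctsb* encodes cathepsin B, which acts both as an endopeptidase and as a dipeptidyl carboxypeptidase (gene 13030, chr14:63122462-63145923, plus strand). *Ctsb* lay at 7.82 and 8.15 in the reporter+ libraries, and at 7.57 and 7.91 in the reporter- libraries. The populations overlapped, with both libraries numbered 3 above the number 2 library of their own population. The log2 difference was 0.24 (95% interval -0.42 to 0.91), with 0.25 within number 2 and 0.24 within number 3.

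*Ctsh* encodes cathepsin H, mainly an aminopeptidase (gene 13036, chr9:90054267-90076095, plus strand). *Ctsh* lay at 3.75 and 3.21 in the reporter+ libraries, and at 3.39 and 2.89 in the reporter- libraries. Here the libraries numbered 2 were the higher ones in both populations. The log2 difference was 0.34 (95% interval -0.41 to 1.09), with 0.37 within number 2 and 0.32 within number 3.

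*Ctsz* encodes cathepsin Z, a carboxypeptidase (gene 64138, chr2:174427494-174439039, minus strand), and *Ctso* encodes cathepsin O, whose substrates are less well known (gene 229445, chr3:81932601-81956725, plus strand). *Ctsz* lay at 6.44 and 6.28 in the reporter+ libraries, and at 6.28 and 6.35 in the reporter- libraries. The log2 difference of *Ctsz* was 0.04 (95% interval -0.38 to 0.46), with 0.16 within number 2 and -0.076 within number 3. *Ctso* lay at 2.87 and 2.08 in the reporter+ libraries, and at 2.71 and 2.02 in the reporter- libraries. The values of *Ctso* thus fell together by heading number rather than by population. The log2 difference of *Ctso* between populations was 0.11 (95% interval -0.92 to 1.13), with 0.16 within number 2 and 0.06 within number 3.

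The aspartic protease cathepsin D and the serine carboxypeptidase cathepsin A, which also shields the hydrolases NEU1 and GLB1 in a complex, differed little between populations. *Ctsd* (gene 13033, chr7:142375910-142387827, minus strand) lay at 8.76 and 9.02 in the reporter+ libraries, and at 8.71 and 8.99 in the reporter- libraries. *Ctsa* (gene 19025, chr2:164832872-164841032, plus strand) lay at 5.81 and 5.54 in the reporter+ libraries, and at 5.59 and 5.69 in the reporter- libraries. Libraries of both populations overlapped for each gene. The log2 difference was 0.04 for *Ctsd* (95% interval -0.70 to 0.78) and 0.04 for *Ctsa* (95% interval -0.41 to 0.49). Within numbers 2 and 3 it was 0.05 and 0.03 for *Ctsd*, and 0.22 and -0.15 for *Ctsa*. *Ctsa* overlaps *Neurl2* and *Pltp* on the opposite strand, *Ctsb* overlaps *Fdft1* and *Ctsz* overlaps *Nelfcd* in the same way. Whether reads were counted by strand is not given in the sources used here. These neighbors had differences of -0.37, -0.47, 0.03 and -0.11. Other overlapping genes had no value in any library. On the same strand these were *Gm49369* for *Ctsd*, *Gm49230* for *Ctsl* and *Hmgb1-ps5* for *Ctss*. On the opposite strand they were *Gm26522* for *Ctsc* and *Gm47123* for *Ctsl*.

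**Figure D2:**
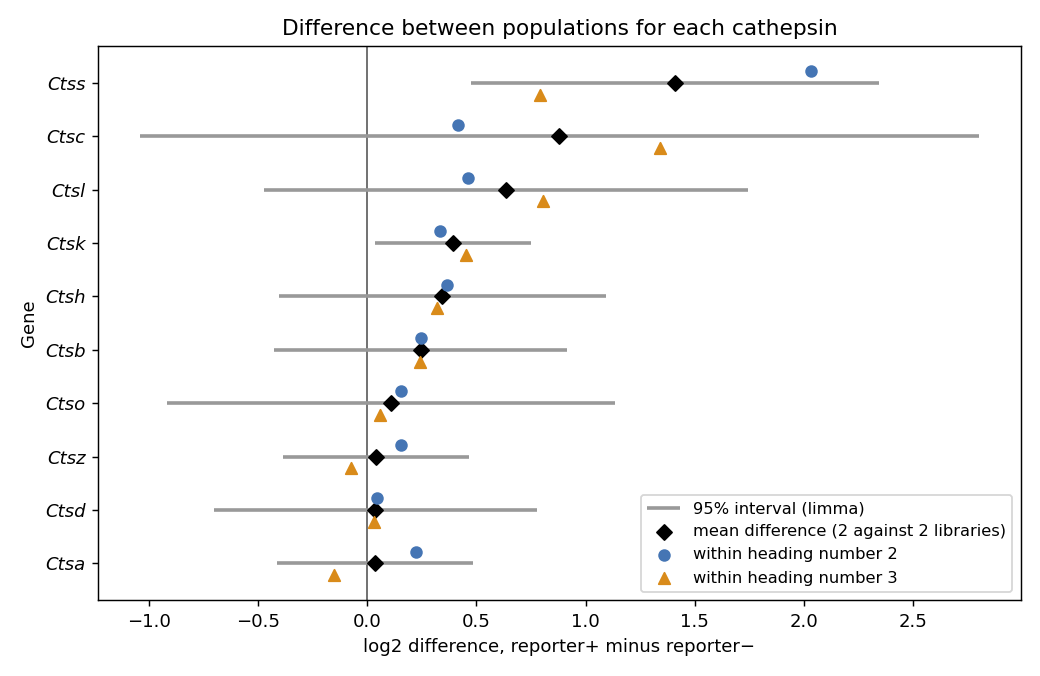
Difference in log2 value between PDGFRα reporter+ and reporter- (horizontal axis) for each cathepsin gene, as the mean of 2 against 2 libraries (diamond) with its 95% limma interval (bar), within heading number 2 (circle) and within number 3 (triangle). The intervals of *Ctss* (0.48 to 2.35) and *Ctsk* (0.04 to 0.75) lie above 0 before adjustment, and *Ctsa* and *Ctsz* have circles and triangles on opposite sides of 0. Without the variance trend, which is not drawn, the interval of *Ctsk* was -0.12 to 0.91.

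By size, a limit of 2 SD of the log2 differences of all genes, the kind of limit used in the study, lay at 0.83. *Ctss* and *Ctsc* were past it, 2 of 10 members, beside 3.36% of all genes past it in that direction. *Ctsc* was just inside the call with 0.88, and *Ctsl* with 0.63 was the next member outside. When the SD was taken over the 10224 genes whose mean log2 value was 0 or more, the limit was 0.432 and *Ctss* and *Ctsl* were past it, 2 of the 9 members concerned, beside 2.47% of those genes. With 1 added to each linear value before taking logs, the limit was 0.31 and 4 members were past it, *Ctsh*, *Ctsk*, *Ctsl* and *Ctss*, beside 2.58% of all genes. *Ctss* was past the limit by each of these measures. Without the reporter- library numbered 2 its difference was 0.98, past the limit from all 4 libraries but not past that recomputed from the 3 left (1.21), and no other member was past either.

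For most members the heading number was associated with a larger difference than the population was. The difference between numbers exceeded that between populations in 8 of 10 members, all but *Ctsk* and *Ctss*, and in 75.7% of all genes, so that the share among the members was near that of all genes. Between numbers, 1 of 10 members passed the test in limma, as did 15.3% of all genes. With population as a term, 4 of 10 members passed (*Ctso*, *Ctsc*, *Ctsh* and *Ctsl*), as did 3065 of all 14415 genes. With that term but no variance trend, 0 members and 0 genes passed. The member that passed without the term was *Ctso*, which was lower in number 3 by a log2 difference of -0.74 (SE 0.11, 95% interval -1.02 to -0.47, adjusted p = 0.0179), with -0.79 in reporter+ and -0.69 in reporter- cells. It lost this call whichever library was left out (adjusted p from 0.0535 to 0.123) and also without the variance trend (adjusted p = 0.0596).

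The members did not share a direction by number. *Ctsc* (1.21), *Ctsl* (0.78), *Ctsb* (0.34), *Ctsd* (0.27) and *Ctss* (0.23) had higher mean log2 values in number 3. *Ctso*, *Ctsh* (-0.52), *Ctsa* (-0.09), *Ctsz* (-0.04) and *Ctsk* (-0.02) had lower ones. *Ctss* was lower in number 3 by 0.39 among reporter+ libraries and higher by 0.85 among reporter- libraries. The median size of the difference over the members was 0.29 between populations and 0.31 between numbers, and over all genes it was 0.12 and 0.31.

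**Figure D3:**
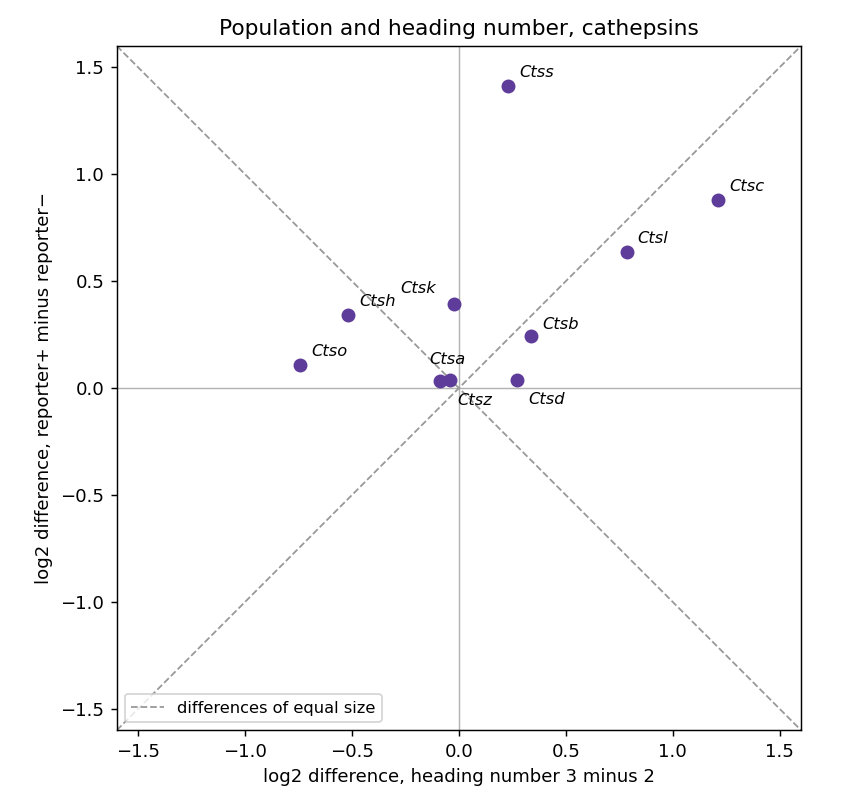
Log2 difference between populations (vertical axis) against log2 difference between heading numbers (horizontal axis) for the 10 cathepsin genes, with dashed lines where both are of equal size. *Ctss* (1.41 and 0.23) and *Ctsk* (0.39 and -0.02) lie where the population difference is the larger, and the other 8 genes where the number difference is.

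Inhibitors of cathepsins had a median difference of 0.17, with 0.17 within number 2 and -0.00045 within number 3. Genes of cathepsin processing, partners and sorting had a median of 0.02. Of 3 cystatin and stefin genes with a value in all libraries, which encode cathepsin inhibitors, *Cst3* and *Cstb* each had a log2 difference of 0.17 and *Cst6* had -0.11, and *Cstb* (5.45 and 5.59 against 5.28 and 5.43) was without overlap. Among 14 genes of processing, partners and sorting, 9 had a higher mean in reporter+ cells and 5 a lower one. Legumain, which cleaves several cysteine cathepsins to their mature form, is encoded by *Lgmn*, with a difference of 0.24 and no overlap. *M6pr*, for a mannose 6-phosphate receptor, had 0.18 and no overlap, *Nagpa* had -0.10, and the sorting receptor gene *Sort1* had -0.76 with overlap. The cathepsin A partners *Neu1* and *Glb1* had 0.15 and 0.01. *Cd74*, for the invariant chain that cathepsin S trims, lay at -3.72 and -2.77 against -3.85 and -4.30, low on the scale, with a difference of 0.83. The remaining cathepsins were *Ctsf* (0.07), *Ctsw* (-0.21, with a mean below 0) and *Ctsg*, which had no value in the reporter+ library numbered 2.

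Other lysosomal genes were spread around a median difference near 0. Of 33 other lysosomal genes, nearly all of them for hydrolases, 18 had a higher and 15 a lower mean in reporter+ cells. Their median difference was 0.01, and none had an unadjusted p under 0.05 in limma. *Lipa*, for lysosomal acid lipase, had the most positive difference (0.25), and *Hyal1* (-0.20) and *Sgsh* (-0.14) had the most negative. Of 25 genes of the lysosomal membrane and its proton pump, 16 were higher and 9 lower, with a median of 0.05, and values of 0.24 for *Lamp2*, 0.21 for *Atp6v1h*, -0.09 for *Lamp1* and -0.07 for *Atp6v0a1*. The proton pump gene *Atp6v0d2*, low on the scale at -1.71 and -0.75 against -1.83 and -2.51, had 0.95 without overlap. The regulators *Tfeb*, *Mitf* and *Tfe3* had differences of 0.03, 0.02 and -0.09. *Tfec*, with a mean below 0, had 1.16. In limma, 0 of them had an adjusted p under 0.05, and the difference between the members and these lists was not tested.

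Markers of macrophages had higher mean values in PDGFRα reporter+ cells. Of the 24 macrophage markers, 23 had a value in all 4 libraries, with a median log2 difference of 0.99. All 23 had a higher mean in reporter+ cells, beside 49.1% of all genes. Of them, 12 were without overlap and higher, beside 7.59% of all genes. A mean below 0, low on the scale, was seen for 9 of the 23. *Cd163* had a value in the reporter+ library numbered 3 alone. *C1qb*, a complement component gene, lay at 2.04 and 1.76 against 0.23 and 0.62, and *Adgre1*, for a macrophage surface receptor, at 1.36 and 2.17 against -0.01 and 1.27. The lowest value of both was in the reporter- library numbered 2, as it was for *Ctss*. On the linear scale the summed macrophage level was 259 and 309 in the reporter+ libraries and 104 and 198 in the reporter- libraries, which is 2.50 times as high within number 2 and 1.56 times within number 3. The summed level of the 10 cathepsins was 988 and 1233 against 869 and 1065, or 1.14 and 1.16 times. A sum rests on its highest genes in a unit that is not stated. *Lyz2* made up 74.3% to 77.4% of the macrophage sum, which without it was 2.20 times as high within number 2 and 1.63 times within number 3, and *Ctsd* made up 42.2% to 48.3% of the cathepsin sum, which without it was 1.23 and 1.28 times as high. The part of these markers in the difference of *Ctss* was not tested.

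Osteoclast markers had a positive median difference, which came from heading number 3. Of 9, 8 had a value in all libraries, 6 with a higher and 2 with a lower mean in reporter+ cells, and the median difference was 0.66, with -0.03 within number 2 and 1.54 within number 3. *Mmp9* lay at 3.21 and 3.89 against 2.18 and 1.41, and *Acp5* (TRAP) at 1.31 and 1.95 against 0.87 and -0.52. *Itgb3* (-0.58) and *Nfatc1* (-0.04) had negative differences. Their summed linear level was 17.5 and 22.6 against 13.5 and 6.74, or 1.30 times within number 2 and 3.35 times within number 3, and without *Mmp9* 0.926 and 1.91 times. The ratio of *Ctsk* was 1.26 within number 2 and 1.37 within number 3. Their part in the difference of *Ctsk* was not tested. Stromal markers had a median difference of -0.10. Their summed level was 3378 and 3609 against 3303 and 3594, or 1.023 and 1.004 times as high within numbers 2 and 3. Without *Col3a1* it was 0.929 and 0.856 times as high. *Dcn* had the most positive difference of them (1.39), followed by *Col3a1* (0.39), and *Fn1* (-0.54) and *Twist2* (-0.30) the most negative. The summed endothelial level was 1.63 and 1.42 against 3.11 and 4.00, or 0.526 and 0.356 times as high within numbers 2 and 3. *Erg* made up 81.0% and 62.8% of this sum in the reporter+ and reporter- libraries numbered 2. In those numbered 3 it made up 12.7% and 5.33%. Without *Erg* the sum was 0.269 and 0.329 times as high. Among 7 endothelial genes, 6 were lower in reporter+ cells, 4 of them without overlap, beside 8.1% of all genes. Their median log2 difference was -1.82, but all 7 had a mean below 0, low on the scale. Of 6 erythroid markers, 2 had a value in all 4 libraries, both with lower means.

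**Figure D4:**
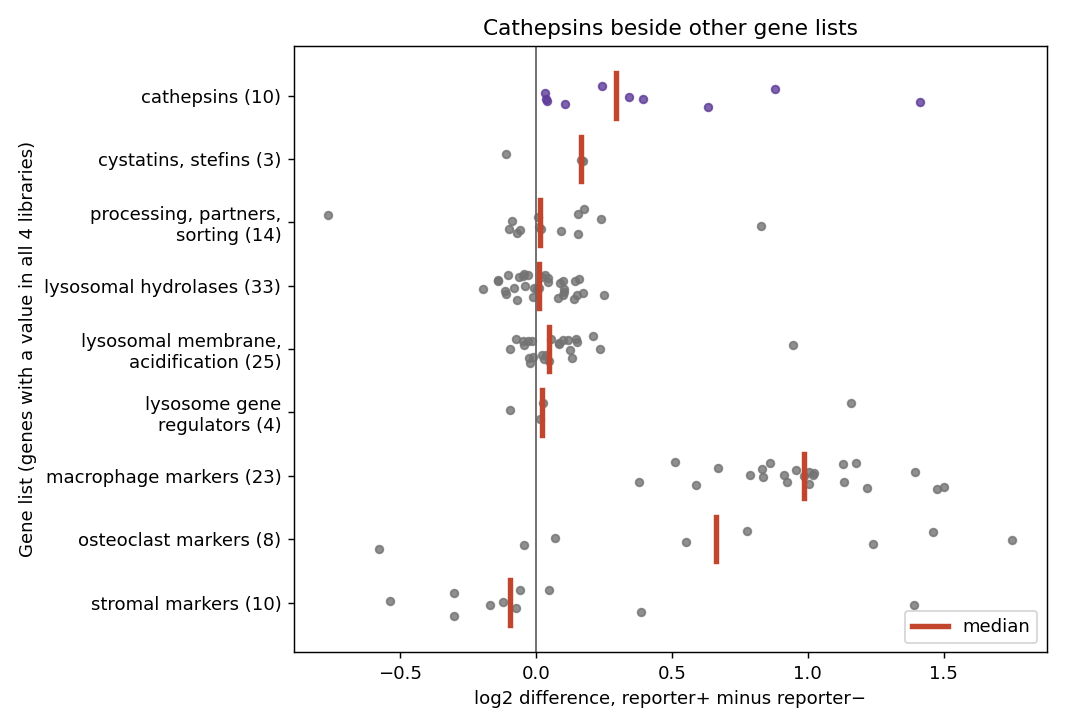
Log2 difference between PDGFRα reporter+ and reporter- (horizontal axis) for each gene with a value in all 4 libraries, by gene list (vertical axis), with a red bar at the median of the list. The median was 0.29 for the cathepsins, 0.01 for the list of lysosomal hydrolases, 0.05 for the lysosomal membrane, 0.99 for macrophage markers and 0.66 for osteoclast markers. Nearly all genes of the hydrolase list encode hydrolases.

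The genes with the most similar profiles were searched for the member with the widest range, *Ctsc*, among the 10224 genes whose mean log2 value was 0 or more. Profiles were centered on the mean of each gene and compared by their Euclidean distance over the 4 libraries. The nearest were *Igf1* (distance 0.24), *Hsd11b1* (0.33), *Zfp973* (0.34), *Cxcl14* (0.34) and *Tfrc* (0.40). *Igf1*, for a growth factor, lay at 2.28 and 4.14 in the reporter+ libraries and at 1.73 and 2.55 in the reporter- libraries, so that, as for *Ctsc*, the reporter+ library numbered 3 stood above the others.

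The same search for *Ctss*, chosen after its values were seen, covered 10223 genes and gave *C1qb* (0.34), *C1qa* (0.39), *Ms4a7* (0.48), *Lyz2* (0.61) and *Fcgr3* (0.65). Of these, 4 are in the macrophage list, and *Ms4a7* is not. *C1qa* lay at 2.73 and 2.68 against 1.23 and 1.92, and *Lyz2*, for lysozyme, at 7.65 and 7.88 against 6.27 and 7.25. All of these genes had their lowest value in the reporter- library numbered 2. Over 4 libraries a distance describes a pattern and is no test.

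**Figure D5:**
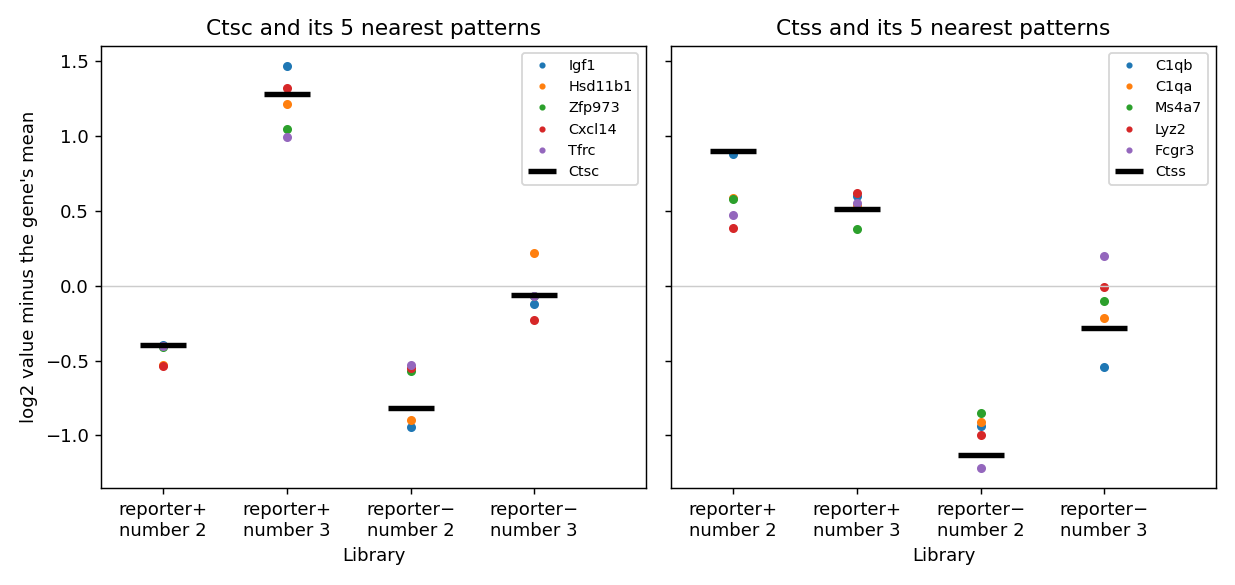
Log2 value minus the mean of the gene (vertical axis) in each library (horizontal axis) for *Ctsc* (left, black bars) and *Ctss* (right, black bars) with the 5 genes nearest to each (colored points). The *Ctsc* set peaks in the reporter+ library numbered 3, and the *Ctss* set is lowest in the reporter- library numbered 2.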

How the data were processed

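Total RNA of 4 samples, 2 per population, was sequenced by the authors from stranded paired-end libraries, and the submitters' processing notes name bcl2fastq 2.17.1.14, Partek 7.0 and the build GRCm38.p6. The aligner, the counting and the filters are not given in the sources used here. The deposited table holds 1 log2 value per gene symbol and library, quantile normalized by the authors, with blanks where no value was given. The log base was taken as 2, as the paper uses. Depth is unknown.

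For the 14415 genes with 4 values, limma 3.58.1 (R 4.3.3) compared the groups by lmFit and a trended eBayes, two-sided and without a block, with Benjamini-Hochberg adjustment and a threshold of 0.05, after a check on simulated data. Python 3.11.15, numpy 2.4.6, pandas 2.3.3 and matplotlib 3.10.9 made summaries and plots. The members and gene lists were chosen with earlier results of these data known. Named are all members, direct partners of their proteins, and of each other list the 2 most positive and 2 most negative genes with a mean of at least 0, except for 1 gene that is not reported here. *Ctsw*, *Ctsg*, *Tfec*, *Atp6v0d2*, *Cd163*, *Ptprc*, *Pecam1*, *Pdgfra*, *Erg* and the overlapping genes were added after their values were seen. Alternatives were a block for the heading number, no trend, a filter on the mean, blanks at the lowest value, a pseudocount of 1, median centering and leaving out each library. Gene positions are from RefSeq GRCm38.p6 and overlaps from GENCODE M21.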

Additional observations from a re-analysis of the deposited data

Results flagged for a closer look

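*Ctsa* and *Ctsz* are listed because their difference between populations had opposite signs in the 2 heading numbers. For *Ctsa* the log2 difference between PDGFRα reporter+ and reporter- was 0.22 within number 2 and -0.15 within number 3. For *Ctsz* it was 0.16 within number 2 and -0.076 within number 3. With 1 library per population and number, the difference between the numbers was not tested.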

How the results depend on the processing

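The labels do not say that the heading numbers pair the libraries. Deviations of libraries with the same number from their population mean had a correlation of 0.683 across the 14415 genes, which are not independent. With the heading number as a replicate block, limma called 29 genes between populations in place of 0. An unadjusted p under 0.05 was then found for 913 of the 14415 genes. No member was among the 29, the smallest member adjusted p was 0.0748 (*Ctss*), and 5 of 10 members had an unadjusted p under 0.05. With the block but no variance trend, added after seeing the data, 0 genes were called and the smallest adjusted p was 0.463. All other settings and each left-out library gave 0 genes.

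Between heading numbers, 2208 genes became 582 without the trend, 225 to 1034 with 1 library left out, and 0 with population as a term and no trend, an added setting with a smallest adjusted p of 0.0536 and 3909 genes at an unadjusted p under 0.05. With population as a term and the trend it was 3065 of 14415 genes. *Ctsc*, *Ctsh* and *Ctsl* then passed the test in limma beside *Ctso* (adjusted p 0.0447, 0.0177, 0.00571 and 0.00644). The cause of these shifts was not tested.

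With 1 library left out, the members' median ranged from 0.16 to 0.38. The differences between populations ranged from -0.10 to 0.17 for *Ctsa*, -0.10 to 0.18 for *Ctsd*, -0.29 to 0.50 for *Ctso* and -0.039 to 0.12 for *Ctsz*, which changed sign. They kept their sign for *Ctss* (0.98 to 1.84), *Ctsk* (0.35 to 0.43), *Ctsl* (0.16 to 1.11), *Ctsc* (0.04 to 1.72), *Ctsb* (0.08 to 0.41) and *Ctsh* (0.07 to 0.61). The differences between numbers changed sign for *Ctsa* (-0.20 to 0.022), *Ctsk* (-0.25 to 0.21), *Ctss* (-0.79 to 1.25) and *Ctsz* (-0.12 to 0.037). They kept it for *Ctsc* (0.54 to 1.89), *Ctsl* (0.38 to 1.19), *Ctsb* (0.21 to 0.46), *Ctsd* (0.25 to 0.30), *Ctsh* (-0.70 to -0.33) and *Ctso* (-0.82 to -0.66). The members past 2 SD were 4 with a pseudocount of 1, and 0 to 2 with 1 library left out, when the limit recomputed from 3 libraries lay at 1.21 to 1.29. Of all genes, 2.61% to 4.2% were past it in the higher direction. There were 0 members without the reporter- library numbered 2, 1 without the reporter+ library numbered 2 (*Ctsc*), 1 without that numbered 3 (*Ctss*) and 2 without the reporter- library numbered 3. Against the limit from all 4 libraries there were 1 to 3, with *Ctss* past it each time, beside 5.39% to 6.99% of all genes. Those without overlap in either direction were 4 to 8 with 1 library left out, beside 55.7% to 60.3% of all genes. With a pseudocount of 1 the differences of *Ctsc* were 0.28 between populations and 0.36 between numbers, and that of *Ctss* between numbers was 0.15. In all settings that kept 4 libraries, the 69 differences between populations kept their direction and side of the threshold. The block, the trend, the filter on the mean and the filled blanks leave the difference of a member unchanged. Only the pseudocount and median centering could have changed a direction. A difference in a gene of low level cannot be weighed against its counting error, because no depth is known.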
